A study of Mus musculus with 20 samples.

Results

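The comparison described here sets 3 libraries of β-catenin KO nephron progenitor cells (NPCs) against 3 CTRL libraries, all in high CHIR, with 1 library of each kind from each of 3 dates. The labels give only a date, without saying whether it is that of culture, sorting or library preparation. These 6 libraries were chosen by the genotype, the CHIR concentration and the date in their labels, out of 20 libraries in 8 groups. NPCs are the mouse embryonic kidney cells that renew themselves or convert into nephrons. Here they were primary cultures from embryos of a Cas9-eGFP line crossed to SWR/J, expanded in NPEM medium. The embryos were all taken at the same stage. All groups carried Cas9 and were transfected with mCherry messenger RNA and guide RNAs. A knockout period of 48 h was followed by culture in high or low CHIR and by sorting of mCherry+ cells. Each library is thus a sorted population of transfected cells and not a clone. CTRL cells received a guide against GFP, which the Cas9 line carries, and β-catenin KO cells received guides against Ctnnb1, the gene of β-catenin. Which of the Ctnnb1 guides each library received is not given in the sources used here, so the 3 β-catenin KO libraries are replicates by label, and a fold change over them averages 3 dates that differed in the Wnt target genes as described below. CHIR, the GSK3 inhibitor CHIR99021, was at 5 µM in high CHIR and at 1.25 µM in low CHIR. CTRL and β-catenin KO in low CHIR (3 libraries each), and α-catenin KO and QCKO in high CHIR (2 libraries each, QCKO being a joint knockout of Cdh2, Cdh3, Cdh4 and Cdh11), are used only where they place a result.

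In the canonical Wnt pathway, β-catenin is continually phosphorylated by GSK3 and degraded. A Wnt signal or CHIR stops the phosphorylation, and β-catenin then enters the nucleus, where it binds TCF/LEF factors at target genes such as Axin2 and Lef1. β-catenin also links cadherins to α-catenin at cell contacts. In NPCs a low Wnt input accompanies self-renewal, marked by Six2 and Cited1, and a high input starts the nephron-forming programme, marked by Wnt4, Lhx1 and Jag1.

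The guides define the groups and are shown for that reason, 5′ to 3′ with the 12 bases next to the PAM in capitals. The 4 Ctnnb1 guides are named in the study's oligo list for exon 2, exon 3, exon 3 and exon 6. Guides 5 and 6 are listed for different exons with the same sequence, so that 3 distinct Ctnnb1 sequences are given. Exon 3 of Ctnnb1 encodes the amino-terminal residues at which phosphorylation marks β-catenin for degradation.
GFP guide (CTRL): gagcuggaCGGCGACGUAAA
Ctnnb1 guide 1, exon 2: atgagcagCGTCAAACTGCG
Ctnnb1 guide 3, exon 3: agccaagcGCTGGACATTAG
Ctnnb1 guides 5 and 6, exons 3 and 6: gagattatGCAGTGTCGTGA

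The 250 bases before the start of 3 genes on which the results turn are also given, from RefSeq on GRCm38.p6 in the direction of the gene. They are Sp5 (a transcription factor gene induced by Wnt), Axin2 (a feedback inhibitor in the β-catenin destruction complex) and Six2 (the transcription factor that keeps NPCs undifferentiated). Capitals mark TCF/LEF letters, searched as CTTTG followed by any 2 bases that are A or T, on both strands.
Sp5, chr2:70474673-70474922, + strand: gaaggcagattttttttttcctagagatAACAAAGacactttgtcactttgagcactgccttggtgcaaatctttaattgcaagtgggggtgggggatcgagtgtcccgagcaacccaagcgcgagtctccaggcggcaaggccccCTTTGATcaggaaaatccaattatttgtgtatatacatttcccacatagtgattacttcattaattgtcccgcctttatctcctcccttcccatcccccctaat
Axin2, chr11:108920099-108920348, + strand: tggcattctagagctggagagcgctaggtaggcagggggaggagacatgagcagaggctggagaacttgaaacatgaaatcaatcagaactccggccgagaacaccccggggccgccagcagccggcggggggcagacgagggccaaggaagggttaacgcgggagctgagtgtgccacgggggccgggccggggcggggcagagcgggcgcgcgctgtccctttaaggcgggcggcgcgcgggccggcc
Six2, chr17:85688255-85688504, - strand: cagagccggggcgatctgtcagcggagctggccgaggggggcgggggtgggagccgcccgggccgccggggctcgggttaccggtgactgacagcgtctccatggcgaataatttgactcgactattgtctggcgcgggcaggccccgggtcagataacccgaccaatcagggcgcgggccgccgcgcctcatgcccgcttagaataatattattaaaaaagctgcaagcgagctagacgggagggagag
Sp5 held 2 matches, which began 222 and 104 bases before the start, and the Axin2 and Six2 windows held none. These letters stood in 14.9% of 27025 RefSeq windows of this length. A match in a window is a description of letters, and where no match was found, the rest of the locus was not searched.

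The targeted gene could not be checked, because no Ensembl identifier of Ctnnb1 was paired with its symbol in the tables used, and its level was not analysed here. Each of the 6 libraries had 18846350 to 28472412 reads over genes (median of CTRL 26523470, of β-catenin KO 19662318), within the range of all 20 libraries (18124772 to 28472412). The NPC markers Six2, Cited1, Eya1, Osr1, Wt1 and Crym were detected in all 6 libraries, and Sall1 and Meox1 had no identifier. The libraries are bulk RNA, so that fewer cells of a type and less RNA per cell cannot be told apart.

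β-catenin KO replicate 1 stood apart from the other β-catenin KO libraries. Euclidean distances over the 500 most variable genes placed β-catenin KO replicates 2 and 3 at 30.7 from each other and replicate 1 at 75.5 and 72.5 from them. Replicate 1 lay at 40.8, 60.7 and 55 from the CTRL libraries in low CHIR and at 76.8 to 86.6 from those in high CHIR. Replicates 2 and 3 lay at 66 to 74.9 from CTRL in high CHIR and at 73.2 to 83.4 from CTRL in low CHIR. Among the CTRL and β-catenin KO libraries, the nearest to replicate 1 was the β-catenin KO library in low CHIR of the same date, at 35.2, and the same-date distances for replicates 2 and 3 were 33.4 and 32.5. The 2 later dates thus formed 1 group of β-catenin KO libraries across both CHIR concentrations and the first date another. For named genes, the value without replicate 1 is given beside the comparison with CTRL in high CHIR where its omission ended a call, turned a direction or moved the log2 fold change by over 1.5 times.

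**Figure D1:**
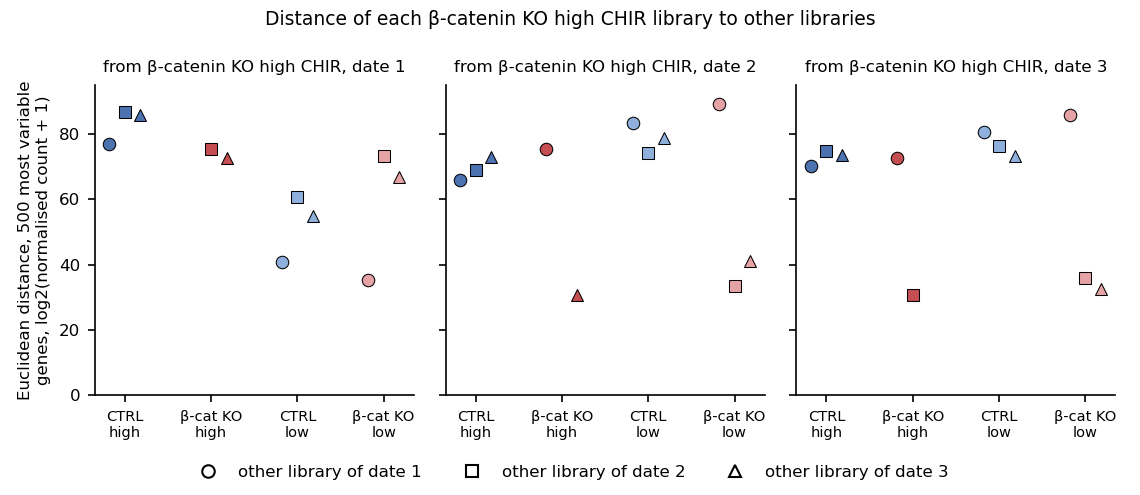
Euclidean distance (y axis, log2 units over the 500 most variable genes) from each β-catenin KO high CHIR library, 1 per panel, to the CTRL and β-catenin KO libraries in high and low CHIR (x axis), with the point shape giving the date. β-catenin KO of date 1 is nearest to the low CHIR libraries of its own date, at 35.2 and 40.8, while β-catenin KO of dates 2 and 3 are nearest to each other, at 30.7.

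To ask how β-catenin KO alters the high CHIR response, normalised read counts of 16691 genes were compared between β-catenin KO and CTRL. β-catenin KO libraries had higher levels of progenitor genes and lower levels of several induction genes than CTRL, whereas the immediate Wnt target genes Axin2, Lef1, Tcf7, Sp5 and Notum did not pass the test. Of all genes tested, 2881 were called (17.3%), at an adjusted p under 0.05 and a log2 fold change over 0.5 in size. Of these, 2018 were higher in β-catenin KO (12.1%) and 863 were lower (5.17%). The log2 fold change was over 1 in size for 1351 of the higher and 348 of the lower genes. Without β-catenin KO replicate 1, 2080 genes were called (12.5%), of which 1621 were higher (9.73%) and 459 lower (2.76%), and 1896 were shared with the full set in the same direction. The call count depended on the libraries and the fit, with 303 genes (277 higher, 26 lower) in a fit of the 6 libraries alone and 1757 without date as a block. Without the libraries of date 3 it was 244, without date 2 it was 1424, and leaving out β-catenin KO replicate 2 or 3 gave 1779 or 1894. Under quantile normalization 56.5% of the calls were higher in place of 70.0%, the median log2 fold change of all genes moving from 0.016 to -0.09.

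**Figure D2:**
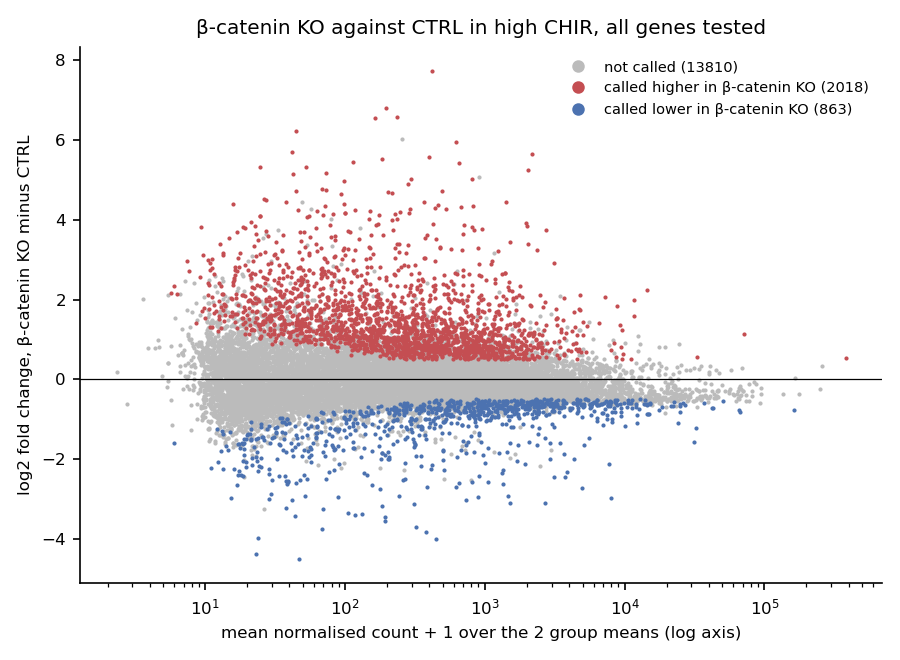
Log2 fold change of β-catenin KO over CTRL in high CHIR (y axis) against the mean normalised count plus 1 (x axis, log scale), 1 point per gene. The 2018 genes called higher reach larger log2 fold changes than the 863 called lower, up to 7.72 for Ch25h among the named genes against -3.82 for Psd2.

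Within the genes called, the 3 β-catenin KO libraries did not lie together. β-catenin KO replicate 1 was the lowest of the 3 β-catenin KO libraries in 66.2% of the genes called lower and the highest in 54.7% of those called higher, against 35.9% of all genes for each. Of the 2881 genes called, 1975 of the higher and 852 of the lower ones had the same sign on all 3 dates, with no overlap between groups for 1658 and 753. Over all genes, 14.8% had the 3 β-catenin KO libraries above the 3 CTRL libraries and 12.3% had them below. Gene symbols were available for 3939 of the genes tested, and these had been chosen by the study's other comparisons, some with the same CTRL libraries. Of the genes with a symbol, 40.6% were called (26.7% higher, 13.9% lower), against 10.0% of those without, and the counts of named genes below are read against the former.

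The Wnt feedback and target genes were listed as a readout of nuclear β-catenin, and in CTRL they did not all respond to CHIR alike. The CTRL means of Axin2, Lef1, Tcf7, Sp5 and Notum were higher in high CHIR than in low CHIR. Those of Lgr5 (198 against 390), Cd44 (1150 against 3570) and Myc (348 against 1710) were lower. Of 20 genes in the list, 8 had an identifier and all 8 were tested; 2 were called higher (Cd44, Myc), none was called lower, and their median log2 fold change was -0.76, against 0.105 over all genes with a symbol. The 2 calls are near the share of genes with a symbol called higher, 26.7%. The low median rested on β-catenin KO replicate 1, since without it the median was 0.14, against 0.165. Axin2 had normalised counts of 357, 435 and 391 in CTRL replicates 1 to 3, and of 18.5, 743 and 687 in β-catenin KO. β-catenin KO was thus far below CTRL on date 1 and above every CTRL library on the other dates. The log2 fold change was -0.87 ± 0.91 (SE, as after each log2 fold change below, n = 3 against 3, adjusted p = 0.52), and it was 0.37 (adjusted p = 0.79) without β-catenin KO replicate 1. Without all libraries of date 1, Axin2 was called higher in β-catenin KO, by 0.79 (adjusted p = 0.032), and so were Notum, by 1.29 at the edge of the threshold (adjusted p rounded to 0.05), Cd44 and Myc.

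The same split by date held for the TCF/LEF factors. Lef1, a nuclear partner of β-catenin that is itself a target, was at 1118, 948 and 1465 in CTRL and at 93.6, 677 and 1020 in β-catenin KO. Replicate 1 was lowest by far and replicate 3 overlapped CTRL, and the log2 fold change of -1.52 ± 0.65 did not pass the test (adjusted p = 0.12), and it was -0.71 without replicate 1 (adjusted p = 0.47). Tcf7, the other such factor, was at 444, 371 and 578 in CTRL and at 92.4, 376 and 514 in β-catenin KO (log2 fold change -0.80 ± 0.42, adjusted p = 0.19; -0.13 without replicate 1, adjusted p = 0.81).

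Sp5 and Notum, a secreted enzyme that removes the lipid of Wnt ligands, followed Axin2. Sp5, whose promoter is shown above, was at 56.7, 36.3 and 106 in CTRL and at 1.16, 68.7 and 88.5 in β-catenin KO (log2 fold change -1.37 ± 1.18, adjusted p = 0.44; -0.08 without replicate 1, adjusted p = 0.97). Notum was at 102, 312 and 125 in CTRL and at 4.62, 407 and 578 in β-catenin KO (log2 fold change -0.54 ± 1.27, adjusted p = 0.80; 0.84 without replicate 1, adjusted p = 0.69). In both genes replicate 1 was near the floor of CTRL in low CHIR, where Sp5 was at 0 in all 3 libraries and Notum at 3.57 to 6.50, and the other β-catenin KO libraries reached or passed the CTRL range in high CHIR.

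The β-catenin KO libraries in low CHIR, which are not part of the comparison, showed the date split too. Axin2 was at 14, 560 and 384 there, against 39.3, 71.5 and 61.4 in CTRL in low CHIR. Sp5 was at 0, 83 and 59.3, and Notum at 1.08, 562 and 325. On dates 2 and 3 these targets were thus high in β-catenin KO at both CHIR concentrations, and on date 1 they were low at both.

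Lgr5, a receptor for R-spondins, was below CTRL in all 3 β-catenin KO libraries. It was at 202, 178 and 215 in CTRL and at 114, 97.5 and 155 in β-catenin KO, without overlap, and its log2 fold change of -0.71 ± 0.26 missed the threshold (adjusted p = 0.069). Cd44, a hyaluronan receptor, rose from 1572, 1215 and 677 in CTRL to 4198, 3657 and 4770 in β-catenin KO (log2 fold change 1.94 ± 0.23, adjusted p = 4.4e-05). Myc, a growth-promoting transcription factor, rose from 359, 160 and 525 to 1636, 868 and 788 (1.73 ± 0.40, adjusted p = 0.0082). Its call was lost without β-catenin KO replicate 1 (1.25, adjusted p = 0.052), while that of Cd44 stayed (2.17, adjusted p = 5.4e-05). Neither was called in the fit of the 6 libraries alone (adjusted p = 0.052 for Cd44 and 0.10 for Myc), and without date 3 only Cd44 was (adjusted p = 0.034, against 0.097 for Myc). Both genes were also high in CTRL in low CHIR, at 2895 to 4672 for Cd44 and 1150 to 2366 for Myc.

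**Figure D3:**
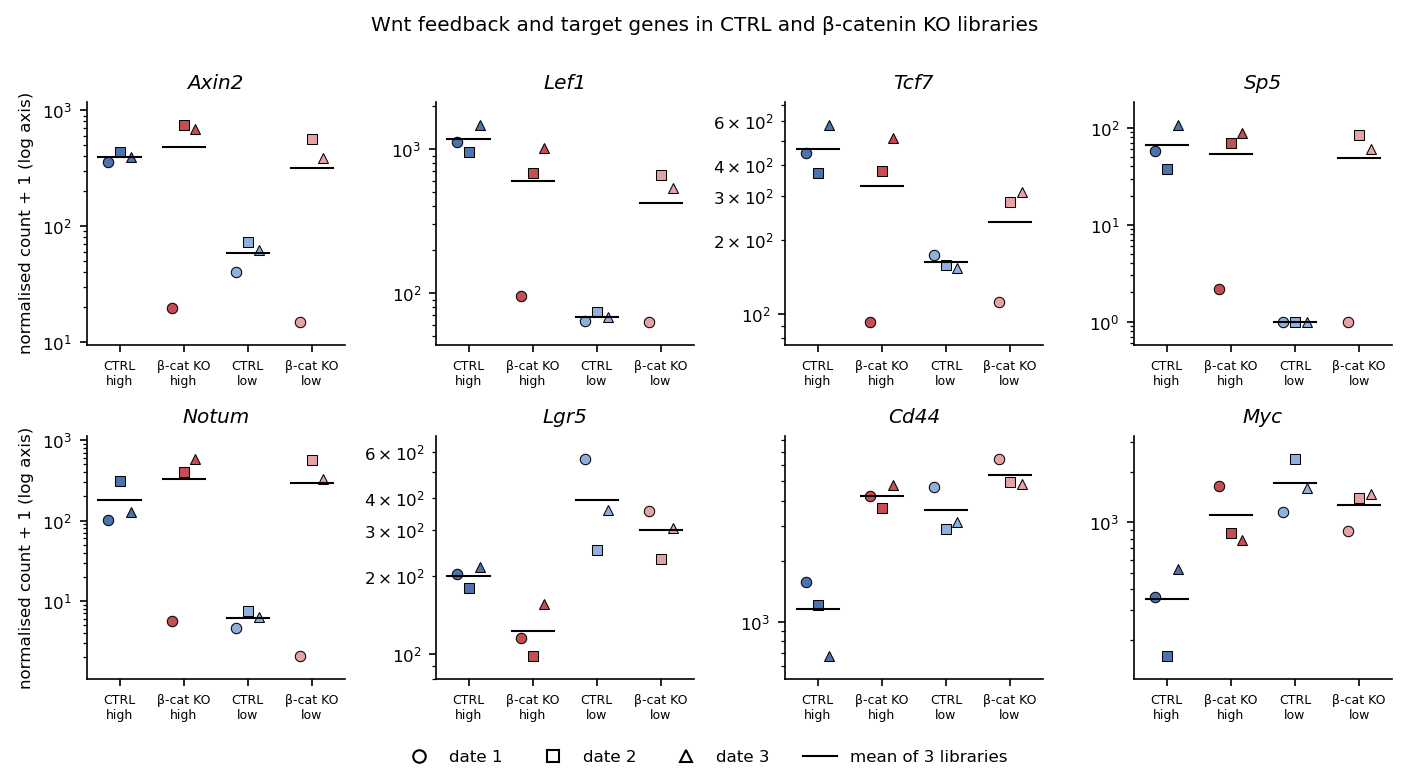
Normalised count plus 1 (y axis, log scale) of the 8 Wnt feedback and target genes with an identifier, in CTRL and β-catenin KO libraries in high and low CHIR (x axis), with 1 point per library, the shape giving the date and the line the mean of 3. For Axin2, Lef1, Tcf7, Sp5 and Notum the β-catenin KO library of date 1 lies far below those of dates 2 and 3 at both CHIR concentrations (Axin2 18.5 against 743 and 687 in high CHIR), and for Cd44 all 3 β-catenin KO libraries lie above the 3 CTRL libraries in high CHIR.

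Among the Wnt ligands, receptors and secreted modulators, 15 of 34 had an identifier and 14 were tested. In β-catenin KO 6 were called higher and 2 lower, against 26.7% and 13.9% of all genes with a symbol. Of these 8 calls, 5 stayed without replicate 1, and 2 without date 3 or in the fit of the 6 libraries alone (Frzb and Fzd4). Frzb, a secreted Wnt antagonist, was at 372, 113 and 101 in CTRL and at 1610, 1692 and 1506 in β-catenin KO (log2 fold change 3.29 ± 0.34, adjusted p = 1.2e-05). Fzd4, a Frizzled receptor, was at 99.8, 49.1 and 157 in CTRL and at 990, 421 and 900 in β-catenin KO (2.96 ± 0.26, adjusted p = 2.8e-06). Both kept their call without replicate 1, with log2 fold changes of 3.53 and 2.80. Rspo1, a ligand of the Lgr receptors, rose by 3.29 ± 0.63, and the Wnt co-receptors Ror1 and Ror2 rose by 1.92 ± 0.43 and 1.20 ± 0.29. Fzd1 was called at 0.66 ± 0.22 (adjusted p = 0.049) and not without replicate 1 (0.71, adjusted p = 0.085).

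The 2 members that fell were Wnt4, described with the induction genes, and Fzd6, another Frizzled receptor. Fzd6 was at 328, 353 and 582 in CTRL and at 24.3, 263 and 337 in β-catenin KO, where replicate 3 overlapped CTRL. Its log2 fold change of -1.64 ± 0.53 (adjusted p = 0.042) was not called without replicate 1 (-1.03, adjusted p = 0.20). Of the destruction complex only Csnk1e, a casein kinase, had an identifier, and its log2 fold change was -0.17 ± 0.17 (adjusted p = 0.50; -0.02 without replicate 1).

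Of the nuclear partners of β-catenin, 4 of 13 had an identifier and 2 were called, both higher. Among all genes with a symbol 40.6% were called and 26.7% were called higher, so that 2 of 4 is no result about the list. Tcf7l1, the TCF factor best known as a repressor, was at 714, 624 and 554 in CTRL and at 2302, 1297 and 1486 in β-catenin KO (log2 fold change 1.39 ± 0.17, adjusted p = 6.2e-05). Bcl9l, a coactivator that binds β-catenin, was at 336, 168 and 322 in CTRL and at 936, 634 and 634 in β-catenin KO (1.45 ± 0.20, adjusted p = 0.00022). Both were called without replicate 1 as well, at 1.25 and 1.40, and neither without date 3 (adjusted p = 0.057 to 0.097).

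The progenitor self-renewal genes were higher in β-catenin KO than in CTRL on every date. Of 20 listed genes 10 had an identifier, and all 10 tested were called higher without overlap between the groups, with a median log2 fold change of 2.70. The share of genes with a symbol called higher was 26.7%, and that with β-catenin KO above CTRL without overlap was 30.0%. All 10 were also called higher without β-catenin KO replicate 1 (median 2.58), and 6 of them in the fit of the 6 libraries alone and without date 3.

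Six2 was at 69.2, 64.1 and 83.9 in CTRL and at 798, 409 and 468 in β-catenin KO, a 7.71-fold ratio of means (log2 fold change 2.88 ± 0.28, adjusted p = 6.5e-06). Cited1, a transcriptional coregulator of uncommitted progenitors, was at 361, 641 and 355 in CTRL and at 2583, 1188 and 2012 in β-catenin KO (2.08 ± 0.31, adjusted p = 0.00038). Osr1, an early kidney lineage factor, was at 61.2, 27.8 and 55.6 in CTRL and at 1686, 624 and 680 in β-catenin KO (4.26 ± 0.29, adjusted p = 3.2e-07). In these 3 genes the lowest β-catenin KO library exceeded the highest CTRL library, and replicate 1 was the highest. Their log2 fold changes without it were 2.62, 1.97 and 3.94.

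The homeobox gene Meox2 showed the largest difference of the list. It was at 47.6, 8.55 and 36.8 in CTRL and at 2233, 650 and 953 in β-catenin KO (log2 fold change 5.42 ± 0.33, adjusted p = 1.5e-07). Crym, a thyroid hormone-binding protein enriched in NPCs, was at 341, 148 and 254 in CTRL and at 4979, 2534 and 3507 in β-catenin KO (3.91 ± 0.20, adjusted p = 5.5e-08). Foxc2 (a forkhead factor) rose by 3.69 ± 0.48 and Robo2 (a Slit receptor) by 2.53 ± 0.21. The smaller rises were those of Wt1 (1.64 ± 0.14), Eya1, the coactivator partner of Six2 (1.29 ± 0.19), and Spry1, an inhibitor of receptor tyrosine kinase signalling (0.96 ± 0.16).

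The nephron induction genes were lower in β-catenin KO for the most part, with the largest drop on date 1. Of 20 listed genes 12 had an identifier and 11 were tested; 7 were called lower (Wnt4, Jag1, Pax2, Emx2, Ovol1, Cdh3, Cdh4), 4 were not called and none was called higher. The member not tested, Wnt11, a Wnt ligand, was under the limit on low values, with 3 reads in the CTRL libraries together and 29 in β-catenin KO, and it was called higher in the fit without that limit (2.39 ± 0.73, adjusted p = 0.048). The median log2 fold change was -1.64, and 13.9% of the genes with a symbol were called lower. Without β-catenin KO replicate 1, Pax2, Ovol1 and Cdh4 were called (median -1.43), 2 members were called without the date as a block, and none was called in the fit of the 6 libraries alone or without date 3.

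Wnt4, the ligand with which forming nephrons sustain their own induction, was at 5286, 4156 and 5401 in CTRL and at 252, 2387 and 1200 in β-catenin KO. The groups did not overlap, and β-catenin KO replicates 2 and 3 kept a level far above the 41.1 to 72.6 of CTRL in low CHIR. The log2 fold change was -2.45 ± 0.69 (adjusted p = 0.023), and -2.03 without replicate 1, where it was not called (adjusted p = 0.10). Jag1, the Notch ligand of the induced state, was at 7444, 2725 and 13320 in CTRL and at 906, 2293 and 4279 in β-catenin KO (-1.64 ± 0.48, adjusted p = 0.027; -1.43 without replicate 1, adjusted p = 0.10), with overlap between the groups. Lhx1, a transcription factor of the first nephron structures, was at 2785, 610 and 3850 in CTRL and at 182, 601 and 992 in β-catenin KO (-1.97 ± 0.74, adjusted p = 0.076). On date 2 the Jag1 and Lhx1 levels of β-catenin KO were close to those of CTRL, and CTRL replicate 2 was the lowest of its group for both.

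Pax2, a transcription factor needed for nephron formation, was at 1235, 812 and 1818 in CTRL and at 192, 480 and 441 in β-catenin KO (log2 fold change -1.83 ± 0.32, adjusted p = 0.0014; -1.56 without replicate 1, adjusted p = 0.011). Ovol1, a zinc finger factor of epithelial cells, was at 398, 437 and 452 in CTRL and at 18.5, 197 and 113 in β-catenin KO (-2.50 ± 0.49, adjusted p = 0.0028; -2.03 without replicate 1, adjusted p = 0.020). Both groups of values were clear of each other in these genes. Emx2, a homeobox gene of the urogenital ridge, had a log2 fold change of -2.61 ± 0.62 (adjusted p = 0.0093), and its call was lost without replicate 1 (-2.10, adjusted p = 0.055). Bmp2, Npy and Tfap2b were not called, at -0.26 ± 0.42, -0.50 ± 0.28 and -0.05 ± 0.68 (Tfap2b -0.73 without replicate 1).

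**Figure D4:**
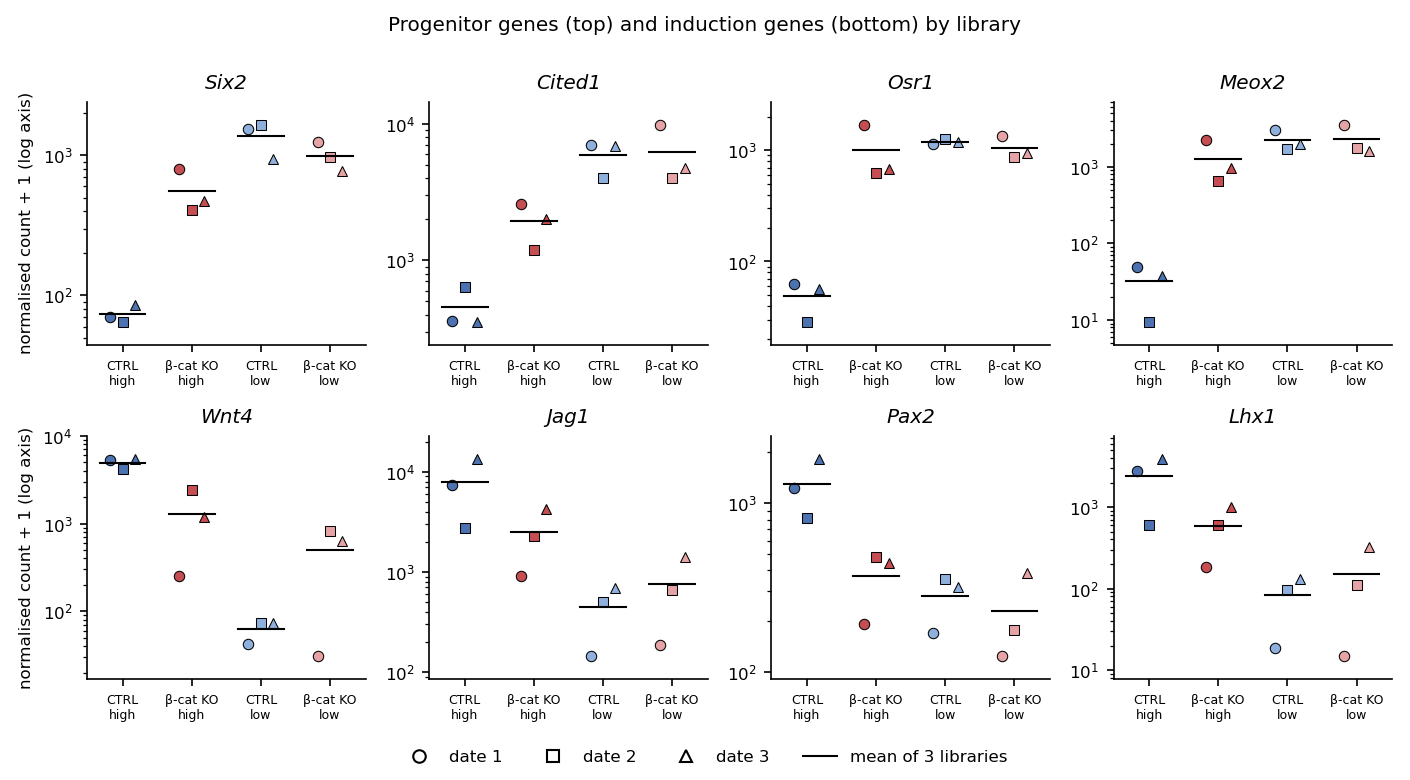
Normalised count plus 1 (y axis, log scale) of 4 progenitor genes (top) and 4 induction genes (bottom) in the CTRL and β-catenin KO libraries in high and low CHIR (x axis), with 1 point per library, the shape giving the date and the line the mean of 3. In high CHIR all β-catenin KO libraries lie above CTRL for Six2 (409 to 798 against 64.1 to 83.9), and for Wnt4 they lie between 252 and 2387 against 4156 to 5401.

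Cadherins are the adhesion receptors to which β-catenin binds at cell contacts. Of 15 cadherin and catenin genes 8 had an identifier, and 1 was called higher and 2 lower, a share of calls near the 40.6% of all genes with a symbol. None of the 3 was called without date 3 or in the fit of the 6 libraries alone. Cdh3 (P-cadherin) was at 3588, 2557 and 3720 in CTRL and at 464, 2093 and 2034 in β-catenin KO (log2 fold change -1.37 ± 0.36, adjusted p = 0.016), and its call was lost without replicate 1 (-0.96, adjusted p = 0.095). Cdh4 (R-cadherin) was at 8840, 7756 and 7647 in CTRL and at 1991, 4390 and 2880 in β-catenin KO (-1.46 ± 0.31, adjusted p = 0.0048; -1.07 without replicate 1, adjusted p = 0.031). Cdh11, a mesenchymal cadherin, rose from 2092, 1883 and 1968 to 4169, 2427 and 3551 (0.74 ± 0.22, adjusted p = 0.031), and was not called without replicate 1 (0.73, adjusted p = 0.082).

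Cdh2 (N-cadherin), Cdh1 (E-cadherin) and Cdh13 were not called, at log2 fold changes of 0.63 ± 0.31, 1.26 ± 0.47 and -0.62 ± 0.47 (Cdh13 -0.21 without replicate 1). The catenin genes Ctnna1, which encodes α-catenin, and Ctnnd2 were at 0.27 ± 0.13 and -0.26 ± 0.72 (Ctnnd2 0.68 without replicate 1). For Cdh13 and Ctnnd2 the β-catenin KO library of date 1 lay below all CTRL libraries (239 against 834 to 1034, and 27.7 against 130 to 264), and on date 3 β-catenin KO lay above them (1163 and 416).

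**Figure D5:**
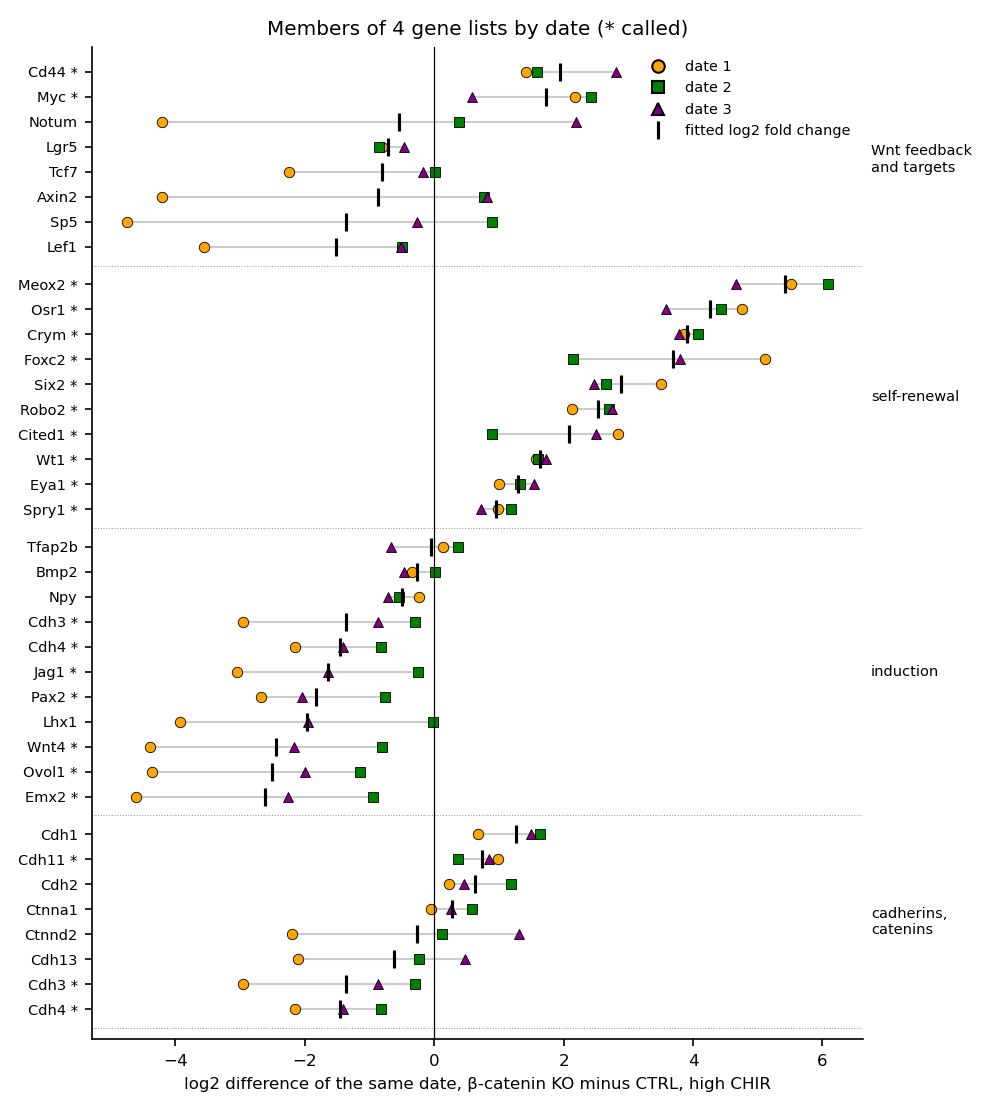
Log2 difference between β-catenin KO and CTRL of the same date in high CHIR (x axis, shapes by date) for the members of 4 gene lists (y axis), with the black bar giving the fitted log2 fold change and an asterisk a called gene. The 10 self-renewal genes lie above 0 on all 3 dates, and among the Wnt targets Axin2, Notum and Sp5 lie below -4 on date 1 alone.

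Several genes of the mesenchymal state, from which induced NPCs depart, were higher in β-catenin KO. Of 14 listed genes 6 had an identifier, and 4 were called higher and none lower, against 26.7% of genes with a symbol called higher. These 4 were also called without replicate 1, and 3 of them without date 3 and in the fit of the 6 libraries alone. The other 2, Vim and Snai1, were not called, at log2 fold changes of 0.19 ± 0.31 (adjusted p = 0.70) and 1.04 ± 0.53 (adjusted p = 0.19). On date 1 both were lower in β-catenin KO than in CTRL, and Vim was lower on date 3 too. Tnc, the matrix protein tenascin-C, was at 353, 98.3 and 426 in CTRL and at 5120, 2630 and 3347 in β-catenin KO (log2 fold change 3.85 ± 0.32, adjusted p = 1.7e-06). The transcriptional repressors Zeb1 and Snai2 rose by 2.61 ± 0.24 and 2.06 ± 0.19, and the matrix glycoprotein gene Sparc by 1.13 ± 0.16. Of 24 epithelial genes only 4 had an identifier. Among these the keratin gene Krt7 was called higher (adjusted p = 0.028) with 3 reads in the CTRL libraries together and 26 in β-catenin KO (a ratio of 9.18, 95% counting interval 2.81 to 47.4), and not without replicate 1 (log2 fold change 1.82, adjusted p = 0.12) or without date 3 (adjusted p = 0.19).

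Of 16 listed p53 response genes, which are induced by DNA damage and other stress, 8 were tested and all 8 were called higher. The share of genes with a symbol called higher was 26.7%. In 5 of the 8 the groups did not overlap, and the rise was not alike on the 3 dates. Of these calls 7 stayed without replicate 1, 1 stayed in the fit of the 6 libraries alone and none stayed without date 3, where the log2 fold changes were 0.59 to 1.93 (adjusted p = 0.065 to 0.44). Against CTRL in low CHIR only Cdkn1a was called higher, by 2.05. The cell cycle inhibitor gene Cdkn1a was at 1594, 2877 and 1458 in CTRL and at 2373, 10750 and 9876 in β-catenin KO (log2 fold change 1.74 ± 0.34, adjusted p = 0.0027). On date 1 it lay within the CTRL range, and on dates 2 and 3 above it. Plk2, a stress-induced kinase, rose by 1.70 ± 0.29 and Ccng1 (cyclin G1) by 1.38 ± 0.20. The other members were Eda2r, Sesn2, Zmat3, Trp53inp1 and Fas, at 0.85 to 1.57, and the call of Fas was lost without replicate 1 (1.17, adjusted p = 0.15). Trp53inp1 was close to the threshold (0.85, adjusted p = 0.049) and lost its call in 17 of 29 alternatives.

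Of the Notch pathway, 5 of 16 genes had an identifier, and 2 were called higher and 1, Jag1, lower. The shares of genes with a symbol called higher and lower were 26.7% and 13.9%. The receptor gene Notch2 was at 2057, 543 and 2100 in CTRL and at 2639, 2342 and 3602 in β-catenin KO (log2 fold change 1.08 ± 0.30, adjusted p = 0.021). Hes1, a Notch-responsive repressor, rose by 0.72 ± 0.22 (adjusted p = 0.031; 0.78 without replicate 1, adjusted p = 0.059). None of the 3 Notch pathway calls stayed without date 3 (adjusted p = 0.26 to 0.42) or in the fit of the 6 libraries alone (adjusted p = 0.17 to 0.19). Of the proliferation genes only Pcna, the DNA polymerase clamp, and Birc5 (survivin) had an identifier of 18. Pcna fell by 0.76 on the log2 scale (SE 0.20, adjusted p = 0.016), from 8248 to 10330 in CTRL to 4699 to 5913 in β-catenin KO, and Birc5 was not called (-0.37 ± 0.25; -0.59 without replicate 1). Irf7, a transcription factor of the interferon response, was called lower (-1.60 ± 0.45, adjusted p = 0.023). The calls of Pcna and Irf7 were lost without date 3 (adjusted p = 0.22 and 0.37, with Irf7 at -0.84) and in the fit of the 6 libraries alone (adjusted p = 0.15 and 0.19).

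Markers of other cell types were covered too thinly for a count of types. Among 10 ureteric epithelium markers 3 were tested, of which Hoxb7 was called lower (-0.73 ± 0.17, adjusted p = 0.0085), with a summed level of all identified members of 830 to 977 in CTRL and 497 to 1030 in β-catenin KO. The 2 endothelial markers tested were Plvap, which was called higher (2.50 ± 0.49), and Tek, which was not (-2.23 ± 0.77, adjusted p = 0.057; -1.13 without replicate 1), with a sum of 95.1 to 231 in CTRL and 159 to 220 in β-catenin KO. Tcf21, listed for podocytes and also expressed in kidney mesenchyme, was called higher (1.52 ± 0.37). The calls of Hoxb7, Plvap and Tcf21 were lost without date 3 (adjusted p = 0.36, 0.10 and 0.20) and in the fit of the 6 libraries alone (adjusted p = 0.18, 0.12 and 0.12). The stromal marker Meis1 was not called (-0.29 ± 0.20), nor was Fxyd2 of the proximal tubule list (0.65 ± 0.77; 0.02 without replicate 1) or a distal tubule marker (0 of 2 tested). None of 8 leukocyte markers had an identifier. The part of other cell types in the results above was not tested.

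The 10 largest rises and drops were picked among called genes with a symbol whose mean over the 6 libraries was at least 100, whose groups did not overlap and whose sign was the same on all 3 dates, so that the separation of the groups in these genes was set by the choice. The genes of largest rise passed the limit on the mean only through β-catenin KO, their CTRL means being 0.617 to 86.8. They included secreted factors. Fgf1, a fibroblast growth factor, was at 14.7, 21.4 and 18.8 in CTRL and at 1222, 832 and 1625 in β-catenin KO (log2 fold change 5.95 ± 0.35, adjusted p = 1.1e-07). Dkk2, a secreted modulator of Wnt co-receptors, was at 22.7, 18.2 and 7.84 in CTRL and at 1114, 565 and 676 in β-catenin KO (5.57 ± 0.31, adjusted p = 8.1e-08). Cxcl12, a chemokine, was at 95.3, 92.9 and 72.1 in CTRL and at 7635, 2141 and 2182 in β-catenin KO (5.24 ± 0.44, adjusted p = 1.7e-06).

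Ch25h, which makes 25-hydroxycholesterol, had the largest log2 fold change (7.72 ± 0.60, adjusted p = 1.1e-06), from 0 to 12.8 in CTRL to 530 to 1360 in β-catenin KO. This rank holds for values with the pseudocount. The ratio of mean normalised counts was larger for Nxph1 than for Ch25h (627 against 164), with CTRL means of only 0.617 and 5.03. Nxph1, a neurexin ligand, had only 2 reads in the 3 CTRL libraries together and 1044 in β-catenin KO, a ratio of 553 with a 95% counting interval of 153 to 4570 (exact binomial, counting error only). Of the β-catenin KO reads 858 came from replicate 1, with 34 and 152 in replicates 2 and 3, and without replicate 1 the ratio was 140 (38.2 to 1160). The others were Tafa4 (6.55), Fgl2 (5.44), Meox2 (5.42), Nell1 (5.03) and Tgtp1 (5.03). Tgtp1, an interferon-inducible GTPase, has a near-identical neighbouring copy, and its value is uncertain for that reason. All 10 were called without replicate 1, at log2 fold changes of 4.52 to 7.47, as they were without date 3 and in the fit of the 6 libraries alone.

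The 10 largest drops were smaller in size, from -3.82 to -3.10, and in 8 of them replicate 1 was the lowest of the β-catenin KO libraries. Psd2, an exchange factor for ARF GTPases, was at 479, 813 and 712 in CTRL and at 11.6, 208 and 36.4 in β-catenin KO (log2 fold change -3.82 ± 0.66, adjusted p = 0.0012). Ntsr2, a neurotensin receptor, was at 454, 637 and 676 in CTRL and at 19.6, 102 and 40.8 in β-catenin KO (-3.70 ± 0.72, adjusted p = 0.0027). Vegfc, a growth factor of lymphatic vessels, was at 552, 413 and 627 in CTRL and at 16.2, 167 and 72 in β-catenin KO (-3.14 ± 0.62, adjusted p = 0.0030). Replicate 2 was the highest of the 3 β-catenin KO libraries in each. The remaining genes were Smoc2 (-3.55), Htr3a (-3.45), Pcolce2 (-3.39), Mgl2 (-3.38), Napsa (-3.17), Plet1 (-3.10) and Rnase12 (-3.10). Without replicate 1 the call of Pcolce2 was lost (-3.19, adjusted p = 0.073) and the other 9 stayed, at -2.25 to -3.47. In the fit of the 6 libraries alone 4 of the 10 stayed, and without date 3 none did, at -2.83 to -3.61 (adjusted p = 0.075 to 0.24).

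Set against CTRL in low CHIR, 837 genes were called in β-catenin KO in high CHIR (5.01%), of which 672 were higher (4.03%) and 165 lower (0.989%), or 6.93% and 3.20% of the genes with a symbol. Without β-catenin KO replicate 1 the count was 849, and without date 3 it was 6. Of the 28 named genes called, none was called without date 3 and 26 were also called without β-catenin KO replicate 1, the exceptions being Lhx1 (3.15, adjusted p rounded to 0.05) and Hes1 (-0.81, adjusted p = 0.090). The self-renewal genes differed among themselves in this comparison. Six2, Cited1, Eya1 and Robo2 were called lower than CTRL in low CHIR, at 40.6%, 32.4%, 44.4% and 33.2% of its mean, and the other 6 were not called. For Six2 the CTRL libraries in low CHIR were at 1540, 1642 and 943, so that β-catenin KO in high CHIR lay between the CTRL groups, apart from both (log2 fold change against low CHIR -1.32, adjusted p = 0.011). Osr1, Wt1, Crym, Spry1, Meox2 and Foxc2 had log2 fold changes of -0.97 to 0.54 against CTRL in low CHIR (adjusted p = 0.13 to 0.83).

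Of the 11 induction genes tested, 6 were called higher than CTRL in low CHIR. These were Wnt4 (3.88, adjusted p = 0.0037), Lhx1 (2.95), Jag1 (2.48), Npy (2.16), Bmp2 (2.10) and Cdh3 (1.33). Pax2, Ovol1, Emx2 and Cdh4 were not called, at 0.36 to 1.46, nor was Tfap2b (-1.48). Of the Wnt targets, Sp5 (4.57, adjusted p = 0.036) and Lef1 (2.56, adjusted p = 0.033) were called higher and Lgr5 lower (-1.61, adjusted p = 0.0019) than CTRL in low CHIR. Of the 11, only Wnt4, Jag1 and Cdh3 were called both below CTRL in high CHIR and above CTRL in low CHIR. Pax2, Emx2, Ovol1 and Cdh4 were called below CTRL in high CHIR alone, Lhx1, Npy and Bmp2 above CTRL in low CHIR alone, and Tfap2b in neither comparison.

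The difference between β-catenin KO and CTRL depended on CHIR for 400 genes (2.40%; 9.57% of those with a symbol), by the interaction term. In 293 of these (1.76% of genes) β-catenin KO minus CTRL was larger in high CHIR and in 107 (0.641%) it was smaller. All 10 self-renewal genes were among them, with interaction terms of 0.96 for Spry1 to 5.45 for Meox2, as were Wnt4 (-4.51, adjusted p = 0.023), Cdh3 (-2.24) and Npy (-1.96). In low CHIR the log2 difference between β-catenin KO and CTRL was -0.45 for Six2 and 2.06 for Wnt4. Without β-catenin KO replicate 1 the interaction was called for 260 genes and without date 3 for none. Of 40 named genes called, 28 stayed without that library. Of those given above, the calls of Wnt4 (-4.09, adjusted p = 0.073), Cdh3 (-1.82, adjusted p = 0.084), Cited1 (1.98, adjusted p = 0.060) and Spry1 (0.97, adjusted p = 0.079) were lost.

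α-catenin KO and QCKO in high CHIR were compared with the same 3 CTRL libraries, so the values are set side by side and no overlap is given. The single gene called in α-catenin KO was its target Ctnna1 (0.00599%), and none was called in QCKO by limma, with 1353 and 2754 genes at an unadjusted p under 0.05. DESeq2 called 7 and 46, and leaving out CTRL replicate 1 gave 6 and 830. Six2 was at 41.2 and 63.5 in α-catenin KO and at 27.8 and 44 in QCKO, below the 409 to 798 of β-catenin KO. Wnt4 was at 5212 and 5849 in α-catenin KO and at 5664 and 4798 in QCKO, above the 252 to 2387 of β-catenin KO. For Axin2 the values of 414 and 490 in α-catenin KO and 575 and 550 in QCKO lay between β-catenin KO replicate 1 and the other β-catenin KO libraries.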

How the data were processed

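Sequenced messenger RNA of sorted NPCs was measured in 20 libraries of 8 groups, grouped by genotype, CHIR concentration and date as given in the labels, with the date as the replicate number. The deposited signal values, for 31130 genes, are reads per gene scaled by the authors with a single factor for each library. 100% of the values were whole multiples of 1 read within 0.02, and reads were recovered from them, with less certainty in 2 libraries whose factor is close to 1 (replicate 2 of β-catenin KO in low CHIR, and replicate 3 of α-catenin KO in high CHIR). The submitters' processing notes name bcl2fastq, STAR, Subread, featureCounts, Salmon and DESeq2, and the builds GRCm38, GRCh38 and mm10, without saying which step made this table. The deposited comparison tables hold log2 fold changes and p-values of the authors' own comparisons, none of them of β-catenin KO, and only their gene symbols (4316 identifiers) were used. RefSeq supplied gene biotypes and promoter windows. The library kit is not stated to keep strand and no molecular identifiers are named, so that counting intervals cover counting error only and antisense or near-identical genes cannot be told apart.

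Values were analysed as log2(normalised count + 1) in R 4.3.3 with limma 3.58.1, on all 20 libraries with 1 mean per group and date as a block, a mean-variance trend and Benjamini-Hochberg adjustment over the genes with a mean of at least 10 (16691). Because of the pseudocount, fold changes of low genes are understated. Genes were called at an adjusted p under 0.05 and a log2 fold change over 0.5 in size. Date was used because the sample titles give one, shared between groups, though not what it is the date of. Deviations of same-date CTRL and β-catenin KO libraries from their group means correlated at 0.148, 0.047 and 0.326 across genes. The labels do not say that the libraries of a group came from different animals, so the p-values measure the spread between these samples, which may be technical in part.

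Named genes are all members of the Wnt target, induction, self-renewal and cadherin lists; the 10 largest changes each way among called protein-coding genes that have a symbol and average at least 100 in the 6 libraries, with no overlap and 1 sign on the 3 dates; and, of 16 other lists, the called members and the 2 of largest absolute log2 fold change. The mesenchymal members Vim and Snai1 are given outside this rule, because they were not called, and the counts of named genes leave them out. The comparison, members and lists were chosen with earlier results of these data known. Under 80% of each list had an identifier. Alternatives were no block, a block within each CHIR concentration, fewer libraries, other pseudocounts, filters and scalings, the count tests edgeR 4.0.16 and DESeq2 1.42.0 on the recovered reads, and omission of each library or date. Leaving out each low CHIR library was added after the data were seen. Scripts were tested on simulated data. The result of 1 listed gene is not reported here.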

Additional observations from a re-analysis of the deposited data

Results flagged for a closer look

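The difference between β-catenin KO and CTRL was itself tested between high and low CHIR, and 400 genes passed that test of the interaction. The values below are the log2 difference in high CHIR minus that in low CHIR, for the named genes that passed. The self-renewal genes were Meox2 (5.45), Six2 (3.33), Cited1 (2.09), Eya1 (1.60), Osr1 (4.48), Wt1 (1.74), Foxc2 (3.46), Crym (3.97), Robo2 (2.62) and Spry1 (0.96). The induction genes were Wnt4 (-4.51), Cdh3 (-2.24) and Npy (-1.96). Of the Wnt ligands, receptors, targets and nuclear partners, the interaction was called for Cd44 (1.33), Fzd4 (3.07), Fzd6 (-3.28), Frzb (3.45), Tcf7l1 (1.48) and Bcl9l (1.39). Of the mesenchymal genes it was called for Snai2 (1.92), Zeb1 (2.54), Sparc (1.04) and Tnc (3.42). Among the largest rises the values were Ch25h (7.53), Nxph1 (5.91), Tafa4 (4.61), Fgf1 (5.28), Dkk2 (4.34), Fgl2 (3.88), Cxcl12 (4.24), Tgtp1 (4.52) and Nell1 (5.16), and among the largest drops Psd2 (-5.04), Ntsr2 (-6.07), Napsa (-3.76), Vegfc (-4.49) and Rnase12 (-4.48). The remaining genes were Hes1 (1.23), Ccng1 (1.16) and Plvap (2.97). The β-catenin KO libraries in low CHIR entered every one of these values, in which Axin2, Sp5 and Notum were split between date 1 and the later dates as in high CHIR. No gene was called without the libraries of date 3, and 260 were called without β-catenin KO high CHIR replicate 1. Of the 40 genes above, Wnt4, Cdh3, Cited1, Spry1, Fzd6, Bcl9l, Sparc, Nxph1, Napsa, Hes1, Ccng1 and Plvap were not called without that library (adjusted p = 0.051 to 0.12).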

How the results depend on the processing

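Across the alternatives, every gene called in β-catenin KO against CTRL that was also called in the reported fit had the same direction. The alternatives reuse the same libraries, so this agreement was close to set in advance. The number of genes shared with the reported fit varied, with 243 without date 3, 303 in the 6 libraries compared and 1230 without date 2. The counts of genes called (2881 as reported) were 1757 with no replicate block, 1663 in the 10 high CHIR libraries, 303 in the 6 libraries compared and 1699 at a log2 fold change over 1, and leaving out libraries or dates gave 244 (without date 3) to 3969 (without CTRL replicate 1). Against CTRL in low CHIR (837) they were 289 with no replicate block, 313 with a block within each CHIR concentration, 531 at a mean of at least 100 and 1306 by DESeq2 with the block, with 6 to 1134 on leaving out libraries. The interaction (400) had 112 with no replicate block, 781 by DESeq2 with the block, and 0 (without date 3, limma, with 879 genes at an unadjusted p under 0.05) to 554 on leaving out libraries. For α-catenin KO (1) the count was 0 with no block, with a block within each CHIR concentration, in the 10 high CHIR libraries and under quantile normalization, 7 by DESeq2, and 0 to 6 on leaving out libraries. QCKO (0) had 46 by DESeq2 with the block, 1 by DESeq2 without it, and 0 to 830 on leaving out libraries, the highest without CTRL high CHIR replicate 1. Of the lists, the fit of the 6 libraries called 0 Wnt target, 0 induction, 6 self-renewal and 0 cadherin genes. No replicate block left 2 induction and 1 cadherin gene called, and DESeq2 without the block 3 and 1. Leaving out libraries gave 1 to 4 Wnt target, 0 to 8 induction, 6 to 10 self-renewal and 0 to 4 cadherin genes. The cause of these changes was not tested, and a smaller fit also has fewer libraries from which the spread is estimated.

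Of 91 named genes, 83 kept their direction in every alternative, and 8 changed sign in some. None of these 8 was called in the reported fit. Against a reported log2 fold change of -0.54, Notum was at 0.22 by edgeR, 0.30 and 0.84 by DESeq2 with and without the block, and -1.91 (without date 3) to 1.29 (without date 1) on leaving out libraries, with 0.32 without CTRL replicate 1 and 0.84 without β-catenin KO replicate 1. Ctnnd2 was at 0.14 by edgeR, 0.09 and 0.35 by DESeq2, and -1.04 to 0.71 (without date 1) on leaving out libraries. Axin2 was at 0.27 by DESeq2 without the block and -1.71 to 0.79 on leaving out libraries, the first without date 3 and the second without date 1. On leaving out libraries, Sp5 ran from -2.50 to 0.32, Cdh13 from -1.17 to 0.13, Csnk1e from -0.36 to 0.01, Tfap2b from -0.73 to 0.51 and Gata3 from -0.99 to 0.14. Over all named genes and alternatives, 2335 values kept direction and call, 243 lost the call, 22 gained it and 24 changed sign. A group held 3 libraries, of which 1 β-catenin KO library stood apart, each list had an identifier for at most 60% of its members, and the effect of read depth was not tested.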
